A study of Equus caballus with 22 samples.

Results

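RBP4, CLU and GPX3 encode secreted proteins of the kind found in the fluid that bathes the early horse conceptus, and their transcripts were followed in endometrium on 2 days of early pregnancy. The genes were represented by every non-control probe of the array whose listed target is a horse RefSeq transcript of 1 of them. This gave 11 of the 43603 probes, with 4 for RBP4 (NM_001081951), 1 for CLU (NM_001081944) and 6 for GPX3 (NM_001115158). All 11 probes were well above background on all 22 arrays. Each gene is described by its brightest probe, and its other probes are given by count and range. The arrays measure transcripts, and protein in uterine fluid was not measured here.

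Before the placenta forms, the horse conceptus lives free in the uterine lumen and is nourished by secretions of the endometrial glands. RBP4, retinol-binding protein 4, is a lipocalin that carries retinol, the precursor of the retinoic acid that embryonic tissues need. CLU, clusterin, is an extracellular chaperone that holds misfolded proteins in solution and restrains the terminal complement complex. GPX3, the secreted glutathione peroxidase, is a selenoprotein that reduces peroxides outside cells.

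Endometrial biopsies of warmblood mares were compared in 4 groups. The day 12 pregnant and day 12 control groups held 6 samples each, a pregnant and a non-pregnant sample from each of mares 1 to 6. The day 8 pregnant and day 8 control groups held 5 samples each, again a pair from each of mares 1, 2, 4, 5 and 6. Pregnant samples were taken after the embryo had been recovered, so the conceptus was no longer in the uterus. The labels state no ages, nor whether equal mare numbers on the 2 days are the same animal. Total RNA was labelled with Cy3 and hybridised to 1-colour Agilent horse arrays. A level below is the log2 processed intensity minus that array's 75th percentile, so 0 is the brightness that 75% of spots do not exceed. Levels are compared between samples for 1 probe and never between probes or genes.

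The 75th percentile of the processed intensity ranged from 577 to 1863 units, 74.2% to 92.9% of spots per array were well above background, and no spot was saturated. Both samples of a mare lay on the same slide, whereas no slide held both days, and the scanner software also differed between days. Day therefore cannot be told apart from slide, scan day and software. Biopsies are mixtures of cells, so fewer cells of a type and less RNA per cell cannot be told apart in any value below. Of 10 listed epithelial markers, 2 were named among the probes, ESRP1 and ESR1, and both were well above background on every array. Their summed linear level, in multiples of the 75th percentile, was 28.4 to 39.7 in day 12 pregnant and 29.0 to 73.4 in day 12 control samples. At day 8 it was 44.5 to 80.6 in pregnant and 52.6 to 71.4 in control samples. Between days in pregnant samples ESR1 fell whereas ESRP1 did not pass, as given below. The sum therefore does not measure the share of epithelial cells.

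RBP4 had the largest changes of the 3 genes between days. Its level was higher at day 12 than at day 8, by 5.79-fold between pregnant samples and by 3.68-fold between control samples. In day 8 control samples of mares 1, 2, 4, 5 and 6 the RBP4 level was 2.08, 1.63, 1.77, 0.96 and 1.26, and in the matching pregnant samples 1.34, 1.83, 1.31, 1.46 and 1.45. In day 12 control samples of mares 1 to 6 it was 3.92, 2.83, 4.14, 2.79, 5.01 and 1.83, and in the matching pregnant samples 4.43, 3.53, 4.41, 3.54, 4.40 and 3.76. Every day 12 pregnant sample lay above every day 8 sample of either kind. Day 12 control samples were the most spread, and that of mare 6 lay within the day 8 range. The group means were 1.54 ± 0.44 (SD, n = 5) in day 8 control, 1.48 ± 0.21 (SD, n = 5) in day 8 pregnant, 3.42 ± 1.15 (SD, n = 6) in day 12 control and 4.01 ± 0.45 (SD, n = 6) in day 12 pregnant samples.

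**Figure D1:**
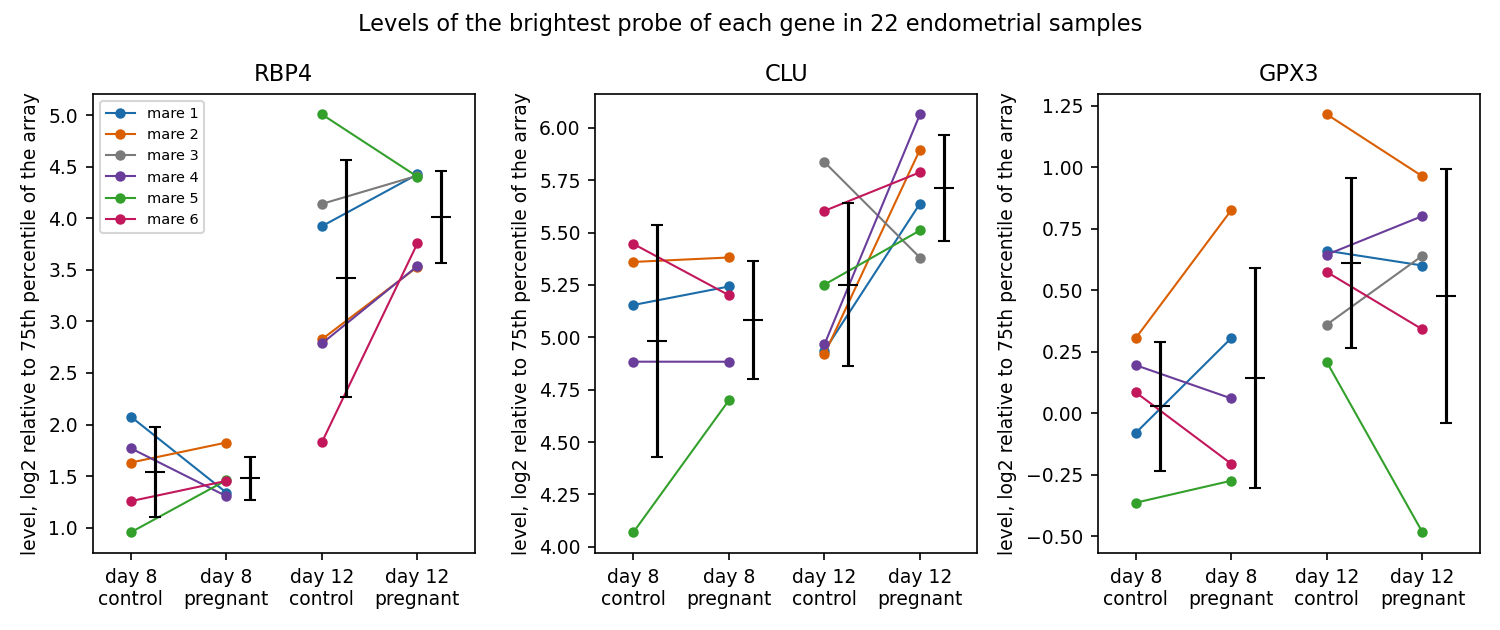
Level of the brightest probe of RBP4, CLU and GPX3 in each of the 22 samples, as log2 relative to the array's 75th percentile (vertical axis, with its own range in each panel), by group (horizontal axis). Points joined by a line are the control and the pregnant sample of a mare, and the bars beside them give the mean and SD of 5 samples at day 8 and 6 at day 12. RBP4 in the 6 day 12 pregnant samples sits between 3.53 and 4.43, above all 10 day 8 samples.

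Between pregnant samples the rise of RBP4 from day 8 to day 12 was 2.53 ± 0.22 (SE) on the log2 scale, with a 95% interval of 2.06 to 3.00 (limma, Benjamini-Hochberg adjusted p = 0.000106). All 4 RBP4 probes passed, with rises of 2.48 to 2.78, which is 5.57-fold to 6.85-fold. In all 4, every day 12 pregnant sample was above every day 8 pregnant sample, an order that 5.37% of all probes showed. Over the 3 genes, 5 of the 11 probes rose between pregnant samples and none fell, against 24.3% of all probes tested that passed in either direction and 11.1% that rose. A rise larger than that of the brightest RBP4 probe was seen in 88 of 38455 probes, or 0.229%. The median change was 0.55 over the 11 probes and -0.03 over all probes. Of the 5 probes that rose, 4 were RBP4 probes of the same transcript, and the genes were chosen with earlier results of these data known. The counts and medians are therefore descriptions and no test of these genes.

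Between control samples the rise of RBP4 was 1.88 ± 0.49 (SE), with a 95% interval of 0.80 to 2.96 (limma, adjusted p = 0.0432). The 4 probes gave rises of 1.75 to 2.09 with adjusted p from 0.0368 to 0.0686, and 2 of them passed. Over the 3 genes, 4 of the 11 probes rose between control samples, 2 of RBP4 and 2 of GPX3, against 7.10% of all probes that passed in either direction and 2.48% that rose. The median change was 0.67 over the 11 probes and -0.01 over all probes. These counts and medians are likewise descriptions, for the same reasons. The call and the size both depended on the setting. Without the 6 dim arrays, those with a 75th percentile under 800 units, a setting chosen after seeing the data, the rise was 2.57 (adjusted p = 0.00997). With slide as a random block the rise was 1.91 (adjusted p = 0.0729), and it was 1.85 where scan day took that place (adjusted p = 0.185). Leaving out any 1 mare number gave 1.42 to 2.13 and an adjusted p of 0.0534 to 0.121, and the count of probes that rose was then 0 or 1.

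**Figure D2:**
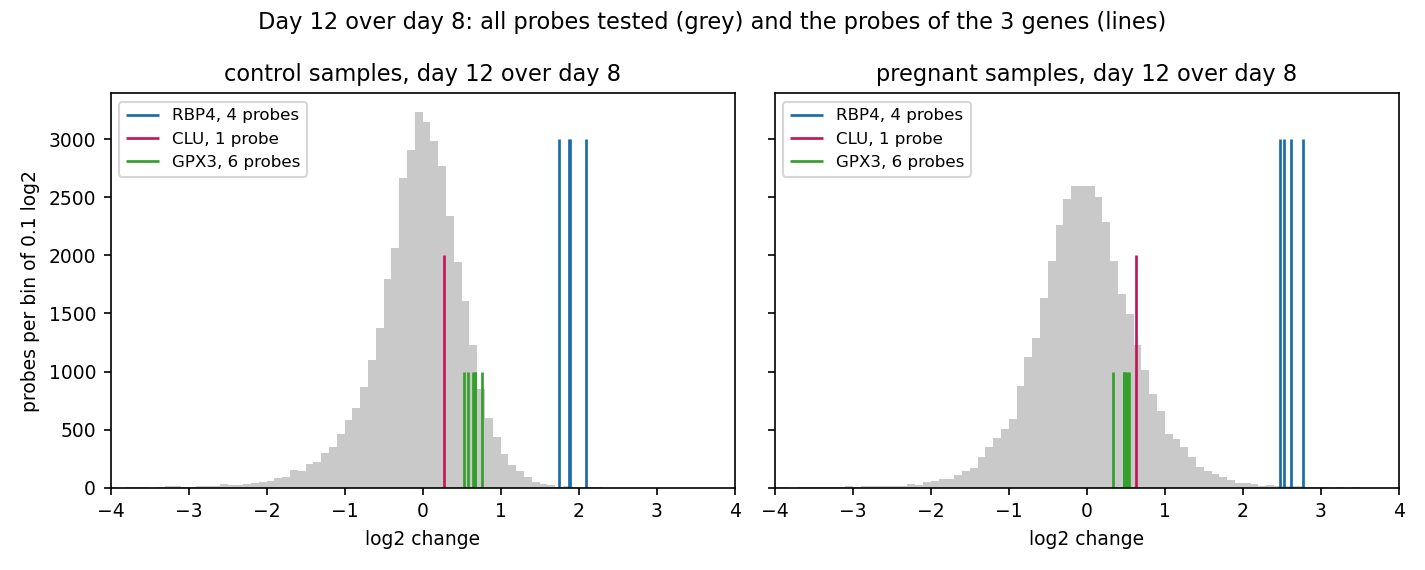
Number of probes (vertical axis, per bin of 0.1 log2) by their change from day 8 to day 12 (horizontal axis, log2, shown from -4 to 4) in control samples and in pregnant samples. Grey bars hold all probes tested, and coloured lines mark the probes of the 3 genes at heights that carry no value. The 4 RBP4 lines lie at 1.75 to 2.09 in control and 2.48 to 2.78 in pregnant samples, at the far right of the grey bars.

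Pregnancy itself was compared within each mare. At day 12 the RBP4 level of the pregnant sample minus that of the control sample was 0.50, 0.70, 0.27, 0.75, -0.60 and 1.93 in mares 1 to 6. It was higher in 5 of 6 mares, with mare 5 the other way and mare 6 the furthest from the rest. The mean difference was 0.59 ± 0.26 (SE), with a 95% interval of 0.02 to 1.16, and it did not pass the test across all probes (limma, adjusted p = 0.381). The 4 RBP4 probes gave 0.56 to 0.59. The fit pools the spread of both days, and for the brightest probe the SD of the differences was 0.82 at day 12 and 0.52 at day 8. None of the 11 probes passed at day 12, against 0.265% of all probes. An unadjusted p under 0.05 was found for 3 of the 11, 2 of RBP4 and that of CLU, against 12.5% of all probes.

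The RBP4 difference at day 12 rested in part on mare 6, which shared a slide with mare 4. That slide held 4 of the 6 dim arrays. By slide the difference was 0.39 in mares 1 and 3, 0.70 in mare 2, 1.34 in mares 4 and 6 and -0.60 in mare 5. It was 0.33 without mare 6 and 0.22 with the 6 dim arrays left out. Without mare 4 the 4 RBP4 probes gave 0.55 to 0.57. With background correction by normexp, the median of all probes itself moved to 0.33, and RBP4 was 0.08 above that median.

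At day 8 the RBP4 difference within mare was -0.74, 0.19, -0.46, 0.50 and 0.20 in mares 1, 2, 4, 5 and 6, with 3 higher and 2 lower. By slide it was -0.27 in mares 1 and 2, -0.46 in mare 4 and 0.35 in mares 5 and 6. Its mean was -0.06 ± 0.28 (SE), with a 95% interval of -0.68 to 0.56 (limma, adjusted p = 0.990). None of the 11 probes passed at day 8 and none had an unadjusted p under 0.05. By the same test 0% of all probes passed, and 2243 of 38453, or 5.83%, had an unadjusted p under 0.05. The pregnancy difference of RBP4 was 0.65 ± 0.39 (SE) larger at day 12 than at day 8, with a 95% interval of -0.19 to 1.498 (limma, adjusted p = 0.567). It was 0.11 with the 6 dim arrays left out and 1.03 with mare number 5 left out on both days. That comparison also sets the rise between days in pregnant samples against the rise in control samples, and the 2 rises were not shown to differ. None of the 11 probes passed it, against 0.0104% of all probes, and none had an unadjusted p under 0.05.

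**Figure D3:**
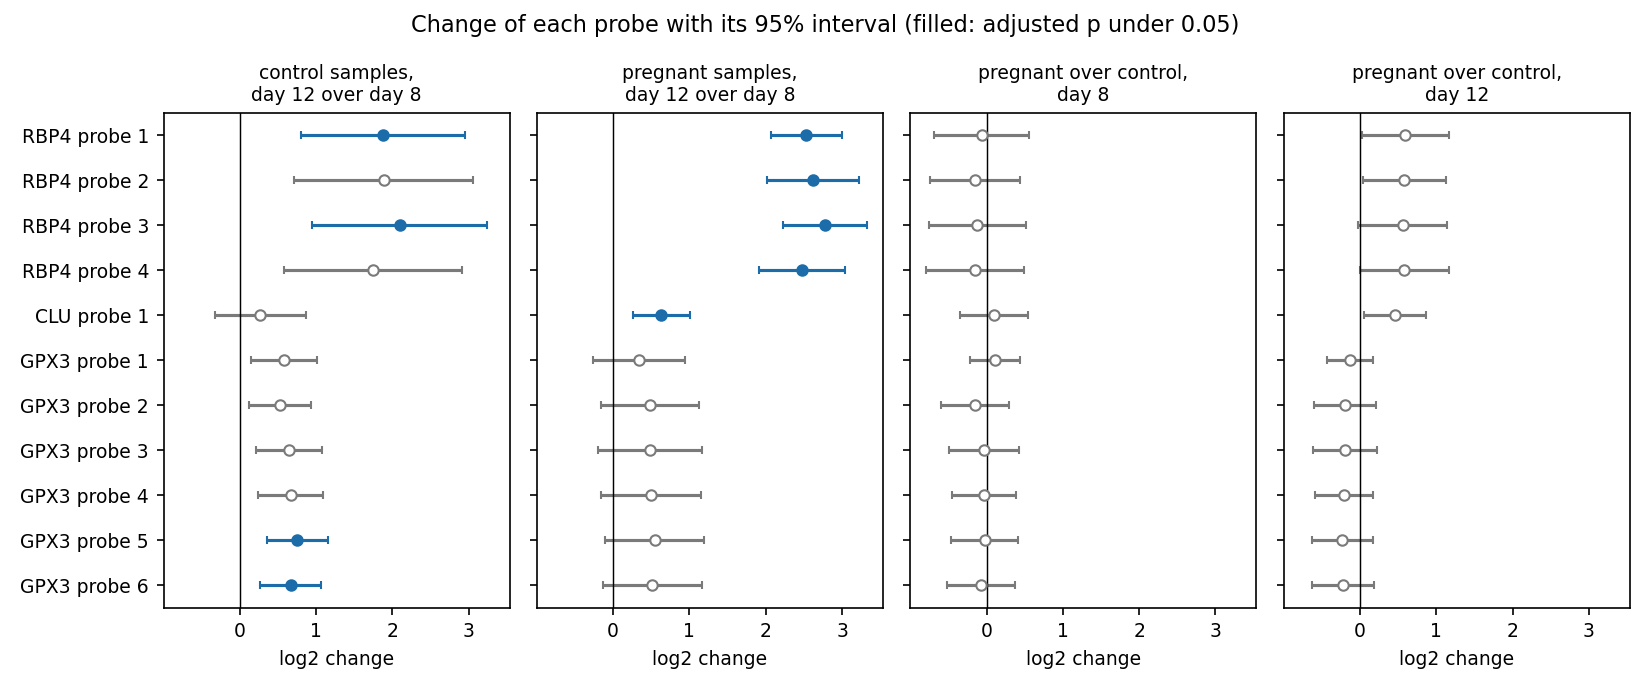
Log2 change (horizontal axis) of each of the 11 probes (vertical axis, brightest probe of a gene first) in 4 comparisons, with 95% intervals from the fit across all probes. Filled points have an adjusted p under 0.05, which were 4 probes between days in control samples, 5 between days in pregnant samples and none between pregnant and control samples of a day.

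CLU was measured by 1 probe and stood high on every array. It was 1.55-fold higher at day 12 than at day 8 between pregnant samples, and the other comparisons did not pass. In day 8 control samples of mares 1, 2, 4, 5 and 6 the CLU level was 5.15, 5.36, 4.88, 4.07 and 5.45, and in the matching pregnant samples 5.24, 5.38, 4.88, 4.70 and 5.20. In day 12 control samples of mares 1 to 6 it was 4.94, 4.92, 5.84, 4.97, 5.25 and 5.60, and in the matching pregnant samples 5.64, 5.90, 5.38, 6.06, 5.51 and 5.79. Day 12 and day 8 pregnant samples touched only at 5.38, reached by mare 3 at day 12 and by mare 2 at day 8. The means were 4.98 ± 0.55 (SD, n = 5) in day 8 control, 5.08 ± 0.28 (SD, n = 5) in day 8 pregnant, 5.25 ± 0.39 (SD, n = 6) in day 12 control and 5.71 ± 0.25 (SD, n = 6) in day 12 pregnant samples.

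Between pregnant samples CLU rose by 0.63 ± 0.17 (SE) on the log2 scale from day 8 to day 12, with a 95% interval of 0.26 to 1.01 (limma, adjusted p = 0.0215). A larger rise was seen in 14.8% of all probes, and falls are not in that share. With normexp it was 0.42 (adjusted p = 0.545) while the median of all probes moved to 0.38, and 0.61 where scan day was the random block (adjusted p = 0.0891). In the authors' deposited value table, tested in the same way, the change was 0.78 (adjusted p = 0.415). With mare number 4, 5 or 6 left out on both days the adjusted p was 0.0903, 0.0625 and 0.0632. Between control samples the CLU change was 0.27 ± 0.27 (SE), with a 95% interval of -0.32 to 0.86 (limma, adjusted p = 0.563).

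Within mares at day 12 the CLU level of the pregnant minus the control sample was 0.70, 0.98, -0.46, 1.098, 0.26 and 0.18 in mares 1 to 6. It was higher in 5 of 6, and mare 3 went the other way. The mean was 0.46 ± 0.18 (SE), with a 95% interval of 0.06 to 0.86 (limma, adjusted p = 0.331), and with normexp CLU lay at -0.05 relative to the median of all probes. The fit pools the spread of both days, and the SD of the CLU differences was 0.58 at day 12 and 0.32 at day 8. By slide the difference was 0.12 in mares 1 and 3, 0.98 in mare 2, 0.64 in mares 4 and 6 and 0.26 in mare 5. At day 8 the within-mare values were 0.09, 0.02, -0.00, 0.63 and -0.25 in mares 1, 2, 4, 5 and 6, with a mean of 0.10 ± 0.20 (SE; limma, adjusted p = 0.974). The difference between the days was 0.36 ± 0.27 (SE; limma, adjusted p = 0.651).

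The brightest GPX3 probe did not pass any comparison. Of its 5 dimmer probes, 2 rose from day 8 to day 12 between control samples, by up to 1.69-fold, a call that depended on the setting. In day 8 control samples of mares 1, 2, 4, 5 and 6 the GPX3 level was -0.08, 0.31, 0.19, -0.36 and 0.08, and in the matching pregnant samples 0.31, 0.83, 0.06, -0.27 and -0.21. In day 12 control samples of mares 1 to 6 it was 0.66, 1.21, 0.36, 0.64, 0.21 and 0.57, and in the matching pregnant samples 0.60, 0.96, 0.64, 0.80, -0.48 and 0.34. The groups overlapped on this probe in every comparison, and the day 12 pregnant sample of mare 5 was the lowest of all 22. The means were 0.03 ± 0.26 (SD, n = 5) in day 8 control, 0.14 ± 0.45 (SD, n = 5) in day 8 pregnant, 0.61 ± 0.35 (SD, n = 6) in day 12 control and 0.48 ± 0.51 (SD, n = 6) in day 12 pregnant samples.

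Between control samples the GPX3 change from day 8 to day 12 was 0.58 ± 0.20 (SE), with a 95% interval of 0.15 to 1.01 (limma, adjusted p = 0.0907). The 6 probes gave 0.53 to 0.75 with adjusted p from 0.0346 to 0.103, which straddles the threshold of 0.05. On the 5 dimmer probes every day 12 control sample lay above every day 8 control sample, an order that 2.79% of all probes showed. None of the 6 passed with slide or scan day as a random block, with mare number as a block, with normexp, in the authors' table or without the dim arrays. With quantile normalization or without the filter on dim probes 1 passed, and over probes well above background on all arrays 4 did. With a mare number left out, 0 or 1 passed. Between pregnant samples the brightest probe gave 0.33 ± 0.28 (SE; limma, adjusted p = 0.394) and the 6 probes 0.33 to 0.55, and with normexp the brightest lay at -0.16 relative to the median of all probes.

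Within mares the GPX3 difference between pregnant and control samples was -0.06, -0.25, 0.28, 0.16, -0.69 and -0.23 in mares 1 to 6 at day 12. Its mean was -0.13 ± 0.14 (SE), with a 95% interval of -0.43 to 0.17 (limma, adjusted p = 0.732), and the 6 probes gave -0.23 to -0.13. By slide the brightest probe gave 0.11 in mares 1 and 3, -0.25 in mare 2, -0.04 in mares 4 and 6 and -0.69 in mare 5. Mare 5 stood lowest on all 6 probes, at -1.13 to -0.69. At day 8 the mean of the brightest probe was 0.11 ± 0.15 (SE; limma, adjusted p = 0.950), whereas the other 5 probes gave -0.15 to -0.02. The difference between the days was -0.25 ± 0.20 (SE; limma, adjusted p = 0.682).

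**Figure D4:**
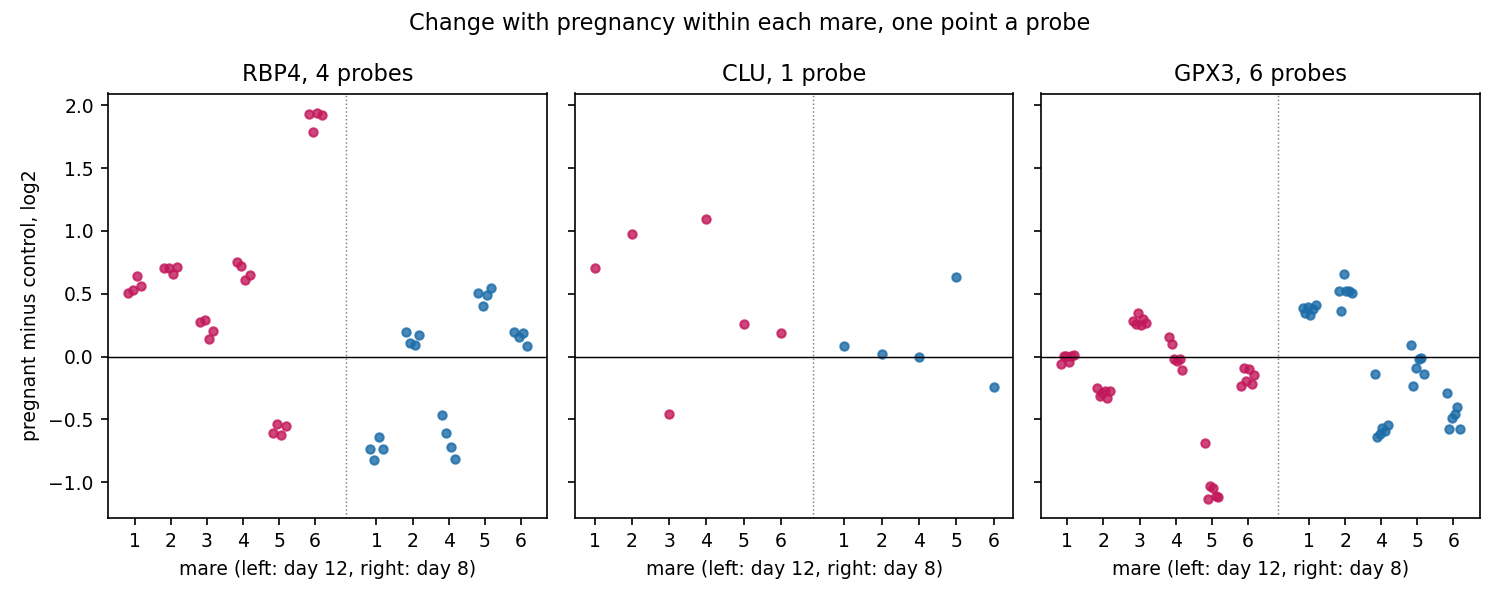
Level of the pregnant minus the control sample (vertical axis, log2) within each mare (horizontal axis, day 12 left of the dotted line and day 8 right of it), with 1 point for each probe of RBP4, CLU and GPX3. The 4 RBP4 probes have the same sign in all 6 mares at day 12 and all 5 at day 8, and the 6 GPX3 probes in 4 of 6 and 4 of 5.

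Probes of the same transcript can be set beside each other because each mare supplies its own difference. Over the 22 arrays the 6 pairs of RBP4 probes had Pearson correlations of 0.995 to 0.998, and over the 11 within-mare differences 0.989 to 0.996. The 4 RBP4 probes spread over 0.06 to 0.15 log2 units within a mare at day 12 and 0.10 to 0.35 at day 8, against an SD between mares of 0.82 and 0.52. For GPX3 the 5 dimmer probes correlated at 0.972 to 0.995 with each other over the 22 arrays and at 0.943 to 0.970 with the brightest. The within-mare spread over GPX3 probes was 0.07 to 0.44 at day 12 and 0.07 to 0.50 at day 8. These probes share their arrays and their RNA, so the correlations describe the measurement and are not replicates of a condition.

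Few genes that act with these 3 could be named, because 675 genes had a symbol among the probes. Of 33 listed genes of retinoid transport and signalling, 1 was measured, RARB, a retinoic acid receptor. RARB rose from day 8 to day 12 between pregnant samples by 0.63 ± 0.15 (SE; limma, adjusted p = 0.0125), on both of its probes. Between control samples the RARB change was 0.14 ± 0.25 (SE; adjusted p = 0.764), and with pregnancy at day 12 it was 0.46 ± 0.18 (SE; adjusted p = 0.325).

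Of 47 listed antioxidant enzymes and selenoproteins, 5 were measured: SOD1, SOD2, TXN, TXNRD1 and SELENOP. SOD1, the cytosolic superoxide dismutase, fell by 0.68 ± 0.12 (SE; limma, adjusted p = 0.0029) from day 8 to day 12 between pregnant samples, and the other 4 did not pass there, although 1 of 9 probes of SOD2, the mitochondrial form, did. The median change of the 5 was -0.05, against -0.03 over all probes. By their brightest probes none of the 5 passed between control samples, where 1 of 9 SOD2 probes did, or with pregnancy on either day. Of all probes, 24.3% passed between pregnant samples and 7.10% between control samples. With pregnancy 0.265% passed at day 12 and 0% at day 8, so these counts are near the background. SELENOP, the selenium carrier of plasma, changed by 0.07 ± 0.25 (SE; limma, adjusted p = 0.860) between pregnant samples.

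Of 41 listed complement genes and partners of clusterin, 2 were measured, C9 of the terminal complement complex and HSPA8, a cytosolic chaperone. HSPA8 fell from day 8 to day 12 by 1.02 ± 0.18 (SE; limma, adjusted p = 0.0108) between control samples and by 1.01 ± 0.15 (SE; adjusted p = 0.00165) between pregnant samples. C9 changed by -0.05 ± 0.53 (SE; adjusted p = 0.955) between pregnant samples.

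Of 42 other listed proteins of uterine fluid, 10 were measured. From day 8 to day 12, by their brightest probes, none of the 10 rose and 3 fell between pregnant samples. Of all probes 24.3% passed in that comparison in either direction, which is near 3 of 10. Falls alone were 5052 of 38455, a smaller share than 3 of 10. The list was chosen with earlier results of these data known, so its count is a description and no test. P19, the uterocalin of the mare and like RBP4 a lipocalin, fell by 0.57 ± 0.18 (SE; limma, adjusted p = 0.0415). PTGDS, a lipocalin that makes prostaglandin D2, fell by 0.56 ± 0.17 (SE; adjusted p = 0.0347), and PLA2G2A, a secreted phospholipase, fell by 1.39 ± 0.40 (SE; adjusted p = 0.0278). The median change of the 10 was 0.21, against -0.03 over all probes. By their brightest probes none of the 10 passed between control samples, where their median was -0.20, or with pregnancy at day 12 or day 8. The shares of all probes that passed were 7.10%, 0.265% and 0% in the same order. Single probes did pass, 3 of 5 of PLA2G2A between control samples and, with pregnancy at day 12, 1 of 2 of PTGDS and 1 of 2 of CALCA, the calcitonin gene.

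Markers of other cell types were also counted for the comparison between pregnant samples, in which RBP4 and CLU rose. PECAM1 of endothelium rose by 0.92 ± 0.19 (SE; limma, adjusted p = 0.00589), TAGLN of smooth muscle by 0.84 ± 0.28 (SE; adjusted p = 0.0462) and CD14 of monocytes and macrophages by 1.01 ± 0.15 (SE; adjusted p = 0.00183). Of the 4 macrophage genes measured, CD14 alone was higher at day 12 and the other 3 were lower, with a median change of -0.20. ESR1 fell by 0.94 ± 0.19 (SE; limma, adjusted p = 0.00633) on its brightest of 6 probes, the only one of the 6 to pass. LUM of stroma fell by 0.63 ± 0.20 (SE; adjusted p = 0.0418), likewise on 1 of 6 probes, and the platelet gene ITGA2B by 0.84 ± 0.14 (SE; adjusted p = 0.00283). Of the 3 blood genes measured, 2 were lower at day 12 and 1 was higher, and ITGA2B alone passed. The epithelial regulator ESRP1 changed by -0.14 ± 0.16 (SE; adjusted p = 0.546). Of all probes, 24.3% passed between pregnant samples in either direction. By their brightest probes none of the 15 markers measured passed between control samples. There 7.10% of all probes passed, so none of 15 is near the background. Summed levels were 12.7 to 22.04 at day 12 and 21.1 to 27.8 at day 8 for stroma in pregnant samples, 1.42 to 2.85 and 0.97 to 1.16 for endothelium, and 0.37 to 0.79 and 0.21 to 0.50 for smooth muscle. The 4 macrophage genes summed to 9.42 to 12.2 and 9.13 to 12.2, the 2 genes of T and NK cells to 1.80 to 18.5 and 2.11 to 23.0, and the 3 blood genes to 0.58 to 0.73 and 0.76 to 0.95. Their part in the RBP4 and CLU changes was not tested.

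For each gene the named genes with the most similar levels were found among 604 others, by Pearson correlation over the 22 arrays. The arrays share the 2 days, so the correlation within a day is given with it. For RBP4 they were QKI at 0.879 (0.766 within day 12, 0.0238 within day 8), PRNP at 0.863 (0.668 and 0.467) and CHGA at 0.858 (0.872 and 0.0394). QKI encodes an RNA-binding protein, PRNP the prion protein and CHGA chromogranin A of secretory granules. Over the 11 within-mare differences these 3 correlated with RBP4 at 0.501, 0.326 and 0.578.

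CLU was closest to RARB at 0.770 (0.840 within day 12, 0.498 within day 8), PECAM1 at 0.735 (0.752 and 0.486) and CDH13, a cadherin, at 0.710 (0.732 and 0.405). Over the 11 within-mare differences these were 0.833, 0.804 and 0.633, from the same arrays that chose these genes. GPX3 was closest to IL4R, the interleukin 4 receptor, at 0.696 (0.587 within day 12, 0.518 within day 8), VCF1 at 0.695 (0.626 and 0.493) and TMEM234 at 0.690 (0.364 and 0.741), with 0.224, -0.05 and 0.708 over the differences. Among the 3 genes themselves no pair was close at day 12. There the correlation over 12 arrays was 0.10 between RBP4 and CLU, -0.48 between RBP4 and GPX3 and -0.13 between CLU and GPX3. Within day 8, over 10 arrays, it was 0.50, 0.44 and 0.64 in the same order, and over the 11 within-mare differences it was 0.32, -0.04 and -0.13.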

How the data were processed

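The deposited scanner output holds 1 spot intensity per feature on a linear scale, made by the authors with Agilent Feature Extraction (10.5.1.1 for day 12 and 10.7.3.1 for day 8, per the file headers). The processed intensity is background-subtracted and unscaled across arrays. A deposited value table of the authors, read as log2 because it rose with log2 intensity, has unstated centring and served as an alternative.

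From the intensities, log2 values minus the array's 75th percentile over 43803 non-control spots were taken. Outlier spots (3 to 152 per array) were dropped and spots of a probe averaged. Of 43603 probes, 38457 were well above background on at least 5 of 22 arrays and were kept. Names came from RefSeq genes of assembly TB-T2T through accessions without version: 1394 probes had 1 symbol, 1 had several and 42208 had none. No coordinates are printed because the arrays name no build.

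Changes were tested two-sided with limma 3.58.1 in R 4.3.3, with Benjamini-Hochberg adjustment over all probes and a threshold of 0.05. Pregnancy was tested in 1 fit of all arrays with mare within day as a block, since the design pairs a mare's samples. Their deviations correlated at 0.307 to 0.744 at day 12 and 0.288 to 0.730 at day 8. Days were compared over 11 arrays each without a block, since the labels do not say that equal mare numbers are the same animal. Samples with equal numbers correlated at -0.301 to 0.324 across days, which does not settle it because no slide held both days. P-values rest on the spread between these mares, moderated across probes, and the number of arrays limits the precision. In the pregnancy tests that spread is pooled over both days, so it is not that of the mares of either day alone. On simulated data of 38099 probes the day 12 pregnancy test recovered 71% of changes of log2 size 1 and 96% of size 2, and the control day test 36% and 76%. The simulated noise was drawn independently for each probe and array, with no shared effect of slide, scan day or dim arrays. These shares therefore do not cover such effects.

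The members and all gene lists were chosen with earlier results of these data known. Each gene stands by its brightest probe, list genes are named where they passed, and like genes are the 3 with the highest correlation. The normexp alternative used median spot and background signals with an offset of 50.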

Additional observations from a re-analysis of the deposited data

How the results depend on the processing

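Settings covered background correction, normalization, the probe filter, the prior, probe averaging, blocks, leaving out each mare number, and, chosen after seeing the data, leaving out the 6 dim arrays. The RBP4 rise between pregnant samples passed in all of them, at 2.25 to 2.72 with an adjusted p of 6.3e-07 to 0.00713 in limma, and at 2.42 to 2.72 with any mare number left out. The 2.25 came with normexp, where the median of all probes moved to 0.38 and RBP4 lay 1.87 above that median. The RBP4 rise between control samples, 1.88 as reported, did not pass without the probe filter (1.88, adjusted p = 0.0547), with slide (1.91) or scan day (1.85) as a random block, or with any mare number left out (1.42 to 2.13). It was 2.57 (adjusted p = 0.00997) without the dim arrays. The CLU rise between pregnant samples, 0.63 as reported, did not pass with normexp (0.42), the authors' table (0.78) or scan day as a random block (0.61), and was 0.51 to 0.70 with a mare number left out.

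Whether equal mare numbers pair samples across days is not known, and their deviations did not all go together. With the replicate block the control samples gave an RBP4 rise of 1.74 (adjusted p = 0.145) and 0 member probes that passed, and the pregnant samples kept an RBP4 rise of 2.45 (adjusted p = 0.00713) and a CLU rise of 0.70 (adjusted p = 0.0435). For the pregnancy comparisons, the day 12 values of RBP4 at 0.59 and CLU at 0.46 cannot change without the replicate block. Each mare gave 1 sample of each kind, so only the spread can change, and neither gene passed without the block. The count of member probes that rose between control samples, 4 as reported, was 2 without the filter, 8 over probes well above background on all arrays, 0 with slide or scan day as a random block, and 0 to 1 with a mare number left out. Between pregnant samples the count was 4 to 5. Day 8 pregnancy values near 0 changed sign: RBP4 was 0.11 without the dim arrays and -0.20 to 0.11 with a mare number left out, CLU was -0.034 to 0.18, and GPX3 was -0.031 as the mean over its probes.

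Over all probes, 954 rose and 1778 fell between control samples, against 409 and 1221 with normexp, 1863 and 2595 with quantile normalization, 11 and 271 in the authors' table, 217 and 555 with slide as a random block, 22 and 189 with scan day so used, 0 and 31 with the replicate block, and 3538 and 2240 without the dim arrays. Between pregnant samples 4280 rose and 5052 fell, against 135 and 254 with normexp, 441 and 395 in the authors' table, 2588 and 2505 with the replicate block, and 1270 and 2163 with scan day as block. With pregnancy at day 12, 102 probes passed, against 13 with normexp, 303 in the authors' table, 218 over probes well above background on all arrays, 287 with a trended robust prior, 41 with no replicate block, 9 from that day's arrays alone and 3 without the dim arrays. The causes were not tested.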
